A study of Mus musculus with 2 samples.

Results

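The lysosome genes described here are 34 genes, chosen by name, that encode enzymes, membrane proteins, proton pump parts and regulators of the lysosome. All 34 were found among the 32285 genes of the deposited gene tables. They were measured by droplet single-cell RNA sequencing (10x Genomics 3′ chemistry) in R1 cells, a mouse embryonic stem cell line, after 72 hours in the serum-free medium N2B27. The series holds 2 libraries, 1 for each of 2 cultures. LB cells received LIF and BMP4 and grew on gelatin. LBPXRS cells received LIF, BMP4, PD0325901 (a MEK inhibitor), Xav939 (a tankyrase inhibitor that dampens WNT signalling), SB431542 (an inhibitor of activin and NODAL receptors) and resorcyclic lactone, and grew on fibronectin. Medium and substrate therefore changed together and cannot be told apart. With 1 library per culture there was no test between cultures. Every interval below is an exact 95% Poisson or binomial interval that covers counting error only. PCR and culture differences lie outside it, and Poisson intervals on means over cells also leave out the spread between cells.

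Lysosomes are acidic organelles in which hydrolases break down proteins, glycans and lipids delivered by endocytosis and autophagy. A proton-pumping ATPase acidifies them, heavily glycosylated membrane proteins line them, and saposins and lipid transfer proteins present lipids to their enzymes. The related factors TFEB and TFE3 bind short E-box elements near the starts of many of these genes and are held in the cytoplasm by the mTORC1 and folliculin machinery when nutrients are plentiful. In mouse embryonic stem cells nuclear TFE3 is known to help hold the naive pluripotent state.

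The promoters of the genes are shown first because several members share the core E-box CACGTG, a palindrome. RefSeq windows from 250 bases before to 50 bases after a start site (GRCm38.p6) were given for 30 of the 34 members. CACGTG occurred in 9 of these 30 genes, against 8.09% of all 27025 genes in the table and 13.0% of the 6173 of them that were measured at 10 CPM or more. The longer TCACGTG, on either strand and overlapping the first, occurred in 8 of 30 (26.7%), against 4.29% and 8.12%. A match describes letters in a window and is not evidence of a bound site. The levels of all 34 members, with or without an E-box, are given below, and a relation between E-boxes and levels was not tested. The stretch nearest upstream of the start site is printed for each of the 9 genes on the gene's own strand, with the E-box in capitals.
Ctsa, chr2:164833746-164833781, plus strand: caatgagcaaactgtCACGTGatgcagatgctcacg
Ctsd, chr7:142387905-142387940, minus strand: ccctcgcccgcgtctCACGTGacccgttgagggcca
Ctsl, chr13:64370736-64370770, minus strand: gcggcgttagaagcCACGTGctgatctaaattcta
Lgmn, chr12:102439121-102439156, minus strand: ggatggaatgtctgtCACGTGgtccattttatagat
Glb1, chr9:114401015-114401050, plus strand: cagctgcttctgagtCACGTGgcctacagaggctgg
Gla, chrX:134601179-134601214, minus strand: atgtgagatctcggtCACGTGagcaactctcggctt
Mcoln1, chr8:3500459-3500494, plus strand: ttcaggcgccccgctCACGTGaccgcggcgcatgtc
Atp6v0d1, chr8:105566047-105566082, minus strand: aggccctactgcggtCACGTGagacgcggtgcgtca
Lamp1, chr8:13159131-13159166, plus strand: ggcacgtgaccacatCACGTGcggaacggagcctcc

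Distances are counted from the RefSeq start site of each window. For Ctsa, Ctsd, Ctsl, Lgmn and Mcoln1 the printed E-box lies inside the gene span given by GENCODE, which begins further upstream. Of these E-boxes, that of Atp6v0d1 lay 3 bases upstream of the start site, that of Ctsa 12, that of Lamp1 15, those of Mcoln1, Glb1 and Lgmn 45 to 49, that of Ctsd 98, that of Gla 194 and that of Ctsl 236. Lamp1, which encodes the main glycoprotein of the lysosomal membrane, held 4 of the 16 E-boxes found, between 61 and 15 bases upstream. They are shown together because no other member window held more than 2.
Lamp1, chr8:13159085-13159166, plus strand: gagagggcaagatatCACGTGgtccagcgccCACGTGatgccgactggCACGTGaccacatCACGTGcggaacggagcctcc

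After cells with fewer than 1000 detected genes or over 10% mitochondrial UMIs were left out, 1783 LB cells and 2705 LBPXRS cells remained. A UMI, or unique molecular identifier, stands for 1 captured RNA molecule, and the kept cells held 45490517 UMIs in LB and 51832444 in LBPXRS. Median depth was 25418 and 19058 UMIs a cell. Of all deposited barcodes 10 occurred in both libraries, and among kept cells 8 did. The 7 embryonic stem cell markers on the list summed to 4283 CPM in LB and 7300 CPM in LBPXRS, where CPM is the UMIs of a gene out of 1000000 UMIs of the library. Of these sums Dppa5a alone gave 2503 and 5029 CPM, and Tdgf1 ran the other way, from 439.7 to 294.6 CPM. LB also held mesoderm markers, at 162.1 CPM against 2.701 CPM in LBPXRS, and trophoblast markers, at 156.0 CPM against 56.9 CPM. Of the latter, Hand1 and Cdx2 gave 84.1 and 45.2 CPM in LB and 0 and 1 UMI in LBPXRS. Tfap2c ran the other way, from 21.5 to 49.1 CPM, as did Gata3, from 5.23 to 7.72 CPM. Elf5, Prl3d1, Ctsj and Ctsq were at 0 UMIs in LB. The trophoblast list summed to 715.4 CPM in LB cluster 5 (17 cells) and to 633.9 CPM in LB cluster 4. The leading genes of cluster 4 include Foxf1 of the mesoderm list, so the sum does not name a cell type. Lysosome gene levels in the LB clusters led by such markers are given below. Across the 7661 genes that reached 10 CPM in either library the median log2 ratio of LBPXRS over LB was -0.17, and TMM scaling, which uses a trimmed mean of ratios, set it at -0.02.

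Summed over the 34 members, lysosome gene RNA made up 1627 CPM of LB (1615 to 1639) and 2436 CPM of LBPXRS (2422 to 2449), 1.497-fold higher in LBPXRS (1.484 to 1.511). Of the members, 32 reached 10 CPM in either library. The other two, Gla and Gpnmb, were too low to be counted but are described below. Among the 32, 8 were at least 2-fold higher in LBPXRS (a log2 ratio of at least 1 after adding 1 CPM), against 7.98% of all genes of that level. There were 2 that were at least 4-fold lower, against 2.88% of all genes, and 10.4% of all genes were at least 2-fold lower. The ratio was above 0 for 27 of the 32, against 39.6% of all genes, and the median over the 32 was 0.57. With TMM scaling, where Ctsc slipped below 10 CPM and 31 members were counted, the split was 11 higher and 1 lower, and the log2 ratio of Ctsc was -2.36. Of the 32, 29 were above 0 on that scale. TMM scaling also moved the median log2 ratio of all genes from -0.17 to -0.02. Shares of all genes were not counted on that scale, so these TMM counts have no background beside them. Direction was thus shared by most of the list, while its size ran from a log2 ratio of -2.47 to 1.71.

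**Figure D1:**
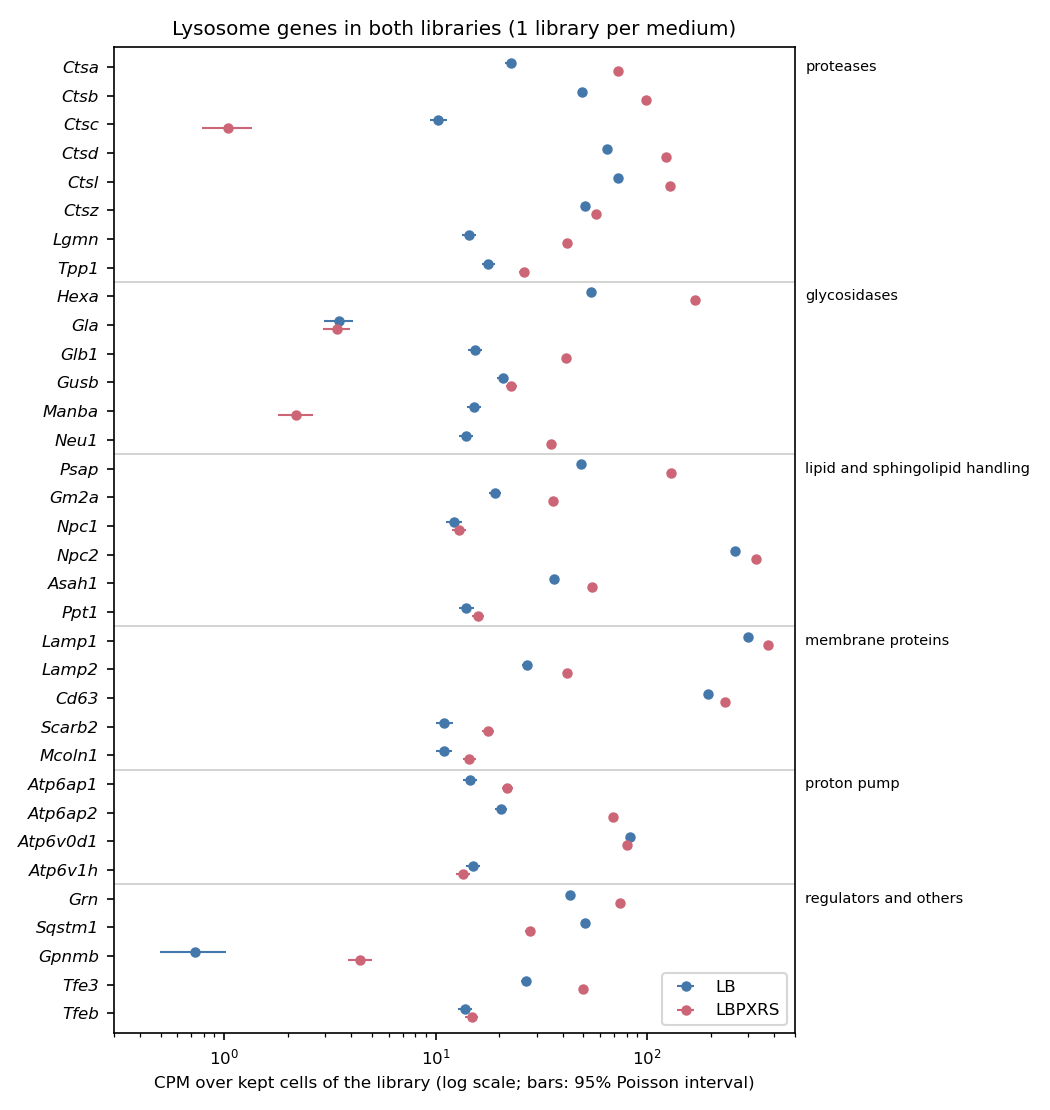
CPM of each of the 34 lysosome genes on a log axis in LB (blue) and LBPXRS (red), 1 library each, grouped by role, with bars for the 95% Poisson interval of the count. The points of Gpnmb, Atp6ap2, Ctsa and Hexa stand furthest apart with LBPXRS to the right, and those of Ctsc and Manba with LBPXRS to the left.

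The 8 proteases together were 302.3 CPM in LB and 549.5 CPM in LBPXRS, 1.82-fold higher (1.78 to 1.86). Ctsa (ENSMUSG00000017760, chr2:164832873-164841032) encodes cathepsin A, a carboxypeptidase that also protects β-galactosidase and neuraminidase. It was 22.7 CPM (21.3 to 24.1) in the LB library and 72.5 CPM (70.2 to 74.9) in the LBPXRS library, a log2 ratio of 1.64. Lgmn (ENSMUSG00000021190, chr12:102394084-102439813) encodes legumain, which cleaves after asparagine and processes cathepsins. It was 14.4 CPM (13.4 to 15.6) in LB and 41.8 CPM (40.1 to 43.6) in LBPXRS, a log2 ratio of 1.47. Ctsb (ENSMUSG00000021939, chr14:63122462-63145923), for the cysteine protease cathepsin B, lay at the 2-fold limit with 48.96 CPM in LB and 98.93 CPM in LBPXRS (log2 ratio 1.00), and was below it with all deposited barcodes (0.99), without cells under 0.5% mitochondrial UMIs (0.94) and without cells of at least 30 lysosome gene UMIs (0.90). Ctsd, for the aspartic protease cathepsin D, fell just outside it with 64.6 and 123.2 CPM (log2 ratio 0.92), and it passed 2-fold with TMM scaling (1.07) and against LB cluster 1 alone (1.22). The cysteine protease gene Ctsl was 72.6 CPM in LB and 128.6 CPM in LBPXRS (log2 ratio 0.82), and against LB cluster 1 alone its log2 ratio was 1.61. Tpp1, for a tripeptidyl peptidase, differed by a log2 ratio of 0.53, and Ctsz, for a carboxypeptidase, by 0.16.

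Ctsc (ENSMUSG00000030560, chr7:88278085-88310888) ran the other way. It encodes the dipeptidyl peptidase cathepsin C, which activates serine proteases of immune cells. LB held 469 UMIs of it, or 10.3 CPM (9.40 to 11.3), and LBPXRS 54, or 1.04 CPM (0.783 to 1.36), so the level was 9.90-fold higher in LB (7.46 to 13.4). The cells that carried it in LB are given with the clusters below.

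The 6 glycosidases had the largest ratio of the 6 role groups, with 122.8 CPM in LB and 272.8 CPM in LBPXRS, 2.22-fold higher (2.15 to 2.29). Against LB cluster 1 alone, a group of cells led by Zfp42 that is described below, the order turned, with log2 ratios of 1.26 for glycosidases and 1.29 for proteases. Hexa (ENSMUSG00000025232, chr9:59539540-59565109), for the α subunit of β-hexosaminidase that degrades GM2 ganglioside, was 54.0 CPM (51.9 to 56.2) in the LB library and 168.1 CPM (164.6 to 171.7) in the LBPXRS library, a log2 ratio of 1.62. Glb1 (ENSMUSG00000045594, chr9:114401076-114474898) encodes β-galactosidase and was 15.3 CPM (14.2 to 16.5) and 41.2 CPM (39.5 to 43.0), a log2 ratio of 1.37. Neu1 (ENSMUSG00000007038, chr17:34931253-34935953) encodes the sialidase neuraminidase 1 and was 13.9 CPM (12.9 to 15.1) and 35.04 CPM (33.44 to 36.69), a log2 ratio of 1.27. Ctsa, Glb1 and Neu1, whose proteins are known to form a complex, were thus all more than 2-fold higher in LBPXRS. Against LB cluster 1 alone Glb1 no longer reached 2-fold, with a log2 ratio of 0.81.

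Gusb, for β-glucuronidase, was 20.7 CPM in LB and 22.8 CPM in LBPXRS (log2 ratio 0.13). Gla, for α-galactosidase A, had 159 UMIs in LB and 177 in LBPXRS, or 3.50 and 3.42 CPM, with overlapping intervals. Manba (ENSMUSG00000028164, chr3:135485611-135571404), for β-mannosidase, was 15.3 CPM (14.1 to 16.4) in the LB library and 2.18 CPM (1.80 to 2.62) in the LBPXRS library, 6.998-fold higher in LB (5.729 to 8.615). Manba and Ctsc were the members at least 4-fold lower in LBPXRS.

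The genes for lipid and sphingolipid handling summed to 390.2 CPM in LB and 577.7 CPM in LBPXRS, 1.48-fold higher (1.45 to 1.51), and all 6 had a ratio above 0. Psap (ENSMUSG00000004207, chr10:60277627-60302597) encodes prosaposin, the precursor of saposins that activate sphingolipid hydrolases. It was 48.5 CPM (46.5 to 50.5) in the LB library and 129.7 CPM (126.6 to 132.8) in the LBPXRS library, a log2 ratio of 1.40. Gm2a, whose product lifts GM2 ganglioside to β-hexosaminidase, was 19.1 and 35.9 CPM (log2 ratio 0.88). Asah1, for acid ceramidase, had a log2 ratio of 0.58. The cholesterol exporters differed less: Npc2 was 260.1 and 328.4 CPM (log2 ratio 0.34), and Npc1 was 12.2 and 12.9 CPM with overlapping intervals. Ppt1, for a thioesterase that removes fatty acids from proteins, had a log2 ratio of 0.17.

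None of the 5 membrane protein genes reached 2-fold, and all 5 were above 0. Their sum was 544.0 CPM in LB and 680.0 CPM in LBPXRS, 1.25-fold higher (1.23 to 1.27). Lamp1 was 301.2 CPM (296.1 to 306.2) in LB and 372.5 CPM (367.2 to 377.8) in LBPXRS, a log2 ratio of 0.31. Cd63, a tetraspanin of late endosomes, was 193.7 and 233.4 CPM (log2 ratio 0.27). Lamp2, needed for fusion with autophagosomes, and Scarb2, the receptor that carries β-glucocerebrosidase to the lysosome, had log2 ratios of 0.61 and 0.64. Mcoln1, for a calcium channel of the lysosomal membrane, was 10.99 CPM in LB and 14.41 CPM in LBPXRS (log2 ratio 0.36).

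The 4 proton pump members summed to 132.8 CPM in LB and 185.1 CPM in LBPXRS, 1.39-fold higher (1.35 to 1.44). Atp6ap2 (ENSMUSG00000031007, chrX:12587801-12617049), for an accessory protein of the pump also known as the prorenin receptor, was 20.5 CPM (19.2 to 21.8) in the LB library and 69.2 CPM (67.0 to 71.5) in the LBPXRS library. Its log2 ratio of 1.71 was the highest among the 32 members at or above 10 CPM. Against LB cluster 1 alone it was 1.94, below those of Neu1 (2.11), Hexa (2.08), Lgmn (2.05) and Psap (1.95). The other accessory protein gene, Atp6ap1, was 14.5 and 21.9 CPM (log2 ratio 0.56). The core subunit genes Atp6v0d1 (82.8 and 80.5 CPM) and Atp6v1h (14.97 and 13.52 CPM) had overlapping intervals and log2 ratios of -0.04 and -0.14. With TMM scaling these were 0.11 and 0.01.

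Among the regulators, Tfe3 was 26.7 CPM (25.2 to 28.2) in the LB library and 49.5 CPM (47.6 to 51.5) in the LBPXRS library, a log2 ratio of 0.87, while Tfeb was 13.8 and 14.8 CPM with overlapping intervals. Set against LB cluster 1 alone, Tfe3 had a log2 ratio of 0.44 and Tfeb one of -0.62. Grn, for progranulin, which is cut into granulins in the lysosome, was 43.1 and 74.1 CPM (log2 ratio 0.77). Sqstm1, for the autophagy receptor p62, was lower, at 50.7 CPM (48.6 to 52.8) in the LB library and 27.9 CPM (26.5 to 29.4) in the LBPXRS library, a log2 ratio of -0.84. Gpnmb, for a glycoprotein of melanosomes and lysosomes, had 33 UMIs in LB and 228 in LBPXRS, or 0.725 and 4.40 CPM, 6.06-fold higher (4.20 to 9.02).

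Position in the genome moved with some of these values. All genes at 10 CPM or more had a median log2 ratio of -0.61 on chromosome 8, which carries Lamp1, Mcoln1, Atp6v0d1 and Asah1, and of -0.63 on chromosome 11, which carries Gm2a, Grn and Sqstm1. Relative to those medians the log2 ratio was 0.92 for Lamp1, 0.97 for Mcoln1, 0.57 for Atp6v0d1, 1.20 for Asah1, 1.51 for Gm2a and 1.40 for Grn. That of Sqstm1 became -0.20. The part that the chromosomes played in these members was not tested. Of the pathway genes named below, Gaa, Atp6v0a1, Gga3, Vmp1, Becn1 and Rptor lie on chromosome 11 and Gabarapl2 and Atp6v1b2 on chromosome 8, and their values are given without this centring. The medians of the other chromosomes that carry members lay between -0.21 and 0.01.

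The wider pathway was read from gene lists that leave out the 34 members. Their counts stand against the same 7.98% of all genes at least 2-fold higher, and the 1 of 11, 1 of 16 and 1 of 15 genes given below for other pump subunits, autophagy and the control of TFE3 and TFEB are near that share. Of 36 other lysosomal enzymes and membrane proteins, 14 reached 10 CPM, with 2 at least 2-fold higher, 0 lower and a median log2 ratio of 0.33. The highest was Gaa, for acid α-glucosidase, at 18.5 CPM in LB and 47.5 CPM in LBPXRS (log2 ratio 1.32). The lowest was Laptm4a, for a lysosomal membrane protein (-0.43). Of 13 other proton pump subunits, 11 were counted and 1, Atp6v0b, was at least 2-fold higher (136.1 to 296.4 CPM, log2 ratio 1.12), with a median of 0.40. Atp6v1c1 followed at 0.80, and Atp6v0a1 and Atp6v1b2 were lowest at -0.07 and -0.59.

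Of 16 genes for the delivery of enzymes and vesicles to the lysosome, 9 were counted, 0 passed 2-fold in either direction and their median log2 ratio was 0.13. Igf2r, for the cation-independent mannose 6-phosphate receptor, was highest at 0.92, followed by Gnptg at 0.38, which helps tag enzymes with that sugar. The sorting adaptor Gga3 (-0.63) and the tethering subunit Vps16 (-0.40) were lowest.

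Of 20 autophagy genes, 16 were counted, with 1 at least 2-fold higher, 0 lower and a median log2 ratio of -0.04 (0.11 with TMM scaling). The highest were the initiating kinase Ulk1 (1.19) and Gabarapl2 (0.97), and the lowest were Vmp1 (-0.76) and Becn1 (-0.68). Among 18 genes that control TFE3 and TFEB or belong to their family, 15 were counted and 1, Mitf, was over 4-fold higher (2.04 to 11.5 CPM, log2 ratio 2.04). Their median was -0.14. Lamtor2, part of the Ragulator scaffold on the lysosome, was at 0.98, against -0.67 for Lamtor3 of the same scaffold and -0.85 for the mTORC1 subunit Rptor. Amino acid stress genes, which respond through ATF4, were counted for 7 of 8, and 5 were at least 2-fold higher with a median log2 ratio of 1.52. Their highest were Nupr1 (3.75) and Ddit3 (3.07), and their lowest were Atf4 itself (0.80) and Sesn2 (0.17).

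Markers of other cell types were summed beside the lysosome genes. The macrophage list of 10 genes summed to 21.8 CPM in LB and 109.7 CPM in LBPXRS, nearly all of it from Cd68 (15.04 and 44.72 CPM) and Laptm5 (6.62 and 64.9 CPM), which encode lysosomal membrane proteins themselves. The other 8 genes held 7 UMIs in LB and 3 in LBPXRS. Ptprc, Adgre1 and C1qb were at 0 in both, with intervals of 0 to 0.0811 CPM in LB and 0 to 0.0712 CPM in LBPXRS. Melanocyte markers summed to 5.52 and 21.3 CPM, most of it Mitf and Mlana, with Tyrp1 at 0 and Tyr at 1 UMI in each library. Endoderm markers summed to 11.7 and 8.45 CPM and fibroblast markers to 17.2 and 5.07 CPM.

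To compare cells at equal depth, 5000 UMIs were drawn at random from every cell that had them, so 50 LB and 84 LBPXRS cells dropped out as too shallow. The median LB cell then held 8 lysosome gene UMIs (quartiles 5 and 11, 1733 cells) and the median LBPXRS cell 11 (quartiles 8 and 15, 2621 cells). Of LBPXRS cells, 44.9% lay above the upper quartile of LB, against 19.6% of LB cells themselves, since many cells share the value 11. The 2 distributions overlapped widely. By LBPXRS cluster the median ran from 7.5 to 15, as its clusters described below differed in their lysosome levels.

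**Figure D2:**
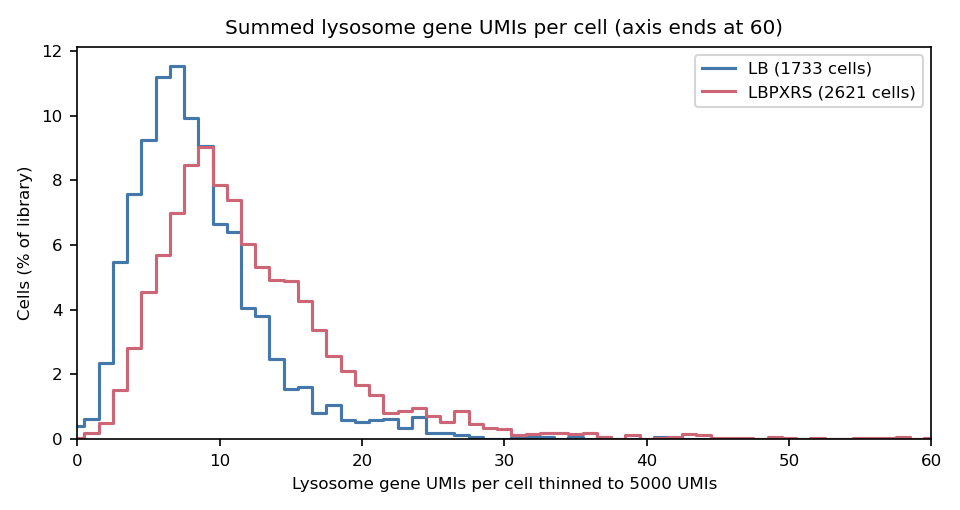
Share of cells of each library (vertical axis, percent) by the number of lysosome gene UMIs in a cell thinned to 5000 UMIs (horizontal axis), with LB in blue and LBPXRS in red. The LBPXRS curve is shifted to the right, from a median of 8 to 11, and has a long right tail, of which 14 cells beyond 60 are not drawn.

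The LBPXRS distribution had a longer tail. Its variance over mean was 5.83 against 2.63 in LB, and its 99th percentile was 44.8 UMIs against 24.0. Cells with at least 30 lysosome gene UMIs, a limit set after the distribution was seen, numbered 6 in LB (0.346%, 0.127 to 0.752) and 76 in LBPXRS (2.90%, 2.29 to 3.62). There were 13 LB and 106 LBPXRS cells between 25 and 35, so the limit cut through a continuous range. In these LBPXRS cells Ctsl made up 9.85% of the lysosome gene UMIs and Ctsd 8.18%, against 4.92% and 4.97% in the other cells, whereas Lamp1 made up 10.6% against 15.4%. They were shallower (median 10672.5 UMIs, other cells 19460) and had a median mitochondrial share of 3.18%, against 2.56%. Of these 76 cells, 29 had over 5% mitochondrial UMIs. So did 4 of the 6 LB cells, whose median share was 6.04%, against 2.73% in other LB cells. The part of cell quality in the tail was not tested. Scrublet marked 0 of the 76 LBPXRS cells as doublets.

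Each library was next clustered on its own, without the lysosome, proton pump, delivery and autophagy genes, Spp1 or Pmel. Clusters are called by number and leading genes. In LB the summed lysosome level was highest in cluster 7, 61 cells led by Slc7a3, A2m and Retsat, at 3362 CPM (3231 to 3496), 2.07 times the library. Of the 32 members at 10 CPM or more in LB, 22 were at their highest there, against 27.3% of all 7015 genes of that level. At least 2 times the library were 18 members, against 11.6% of all genes. Atp6ap2 reached 102.2 CPM there (80.6 to 128.0), 5.00 times the library. Ctsl reached 349.8 CPM (308.6 to 395.0), 4.82 times, and Lgmn 57.9 CPM (41.9 to 77.9), 4.01 times. These cells had a median of 10944 UMIs and 6.74% mitochondrial UMIs, against 25418 and 2.72% over the library, and the part of cell quality in the level was not tested. Their embryonic stem cell markers summed to 8061 CPM.

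Elsewhere in LB the sum was 2051 CPM in cluster 2 (led by T), 1945 CPM in cluster 3 (Mesp1), 1887 CPM in cluster 6 (Cxcl10 among its leading genes), 1763 CPM in cluster 9 (Fabp3 and Calb2) and 1625 CPM in cluster 4 (Hoxb6 and Foxf1). It was lower in cluster 1 (Zfp42), at 1381 CPM (1362 to 1400), and cluster 8 (Fgf5 and Dnmt3b), at 1352 CPM (1326 to 1380), whose intervals overlap. A small cluster 5 of 17 cells with 0.0322% mitochondrial UMIs held 101 lysosome gene UMIs, 769 CPM (626 to 934). Against cluster 1 alone, the 34 members summed to a log2 ratio of 0.82 in LBPXRS, against 0.58 for all LB cells.

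Manba and Ctsc, the members at least 4-fold lower in LBPXRS, differed among LB clusters. Manba was 30.3 CPM in cluster 1 (27.6 to 33.2), 25.7 CPM in cluster 9 (21.7 to 30.2) and 53.8 CPM in cluster 7 (38.4 to 73.3). In clusters 2, 3, 4, 6 and 8 it lay between 0.477 and 3.87 CPM. Against cluster 1 alone its log2 ratio was -3.30. Ctsc was low in clusters 1 and 9, at 4.18 and 3.99 CPM, and lay between 11.5 and 29.6 CPM in clusters 2, 3, 4, 6, 7 and 8. Its level in cluster 7 (29.6 CPM, 18.6 to 44.8, from 22 UMIs) overlapped that in cluster 6 (26.3 CPM, 19.6 to 34.6). Against cluster 1 its log2 ratio was -1.34, with neither level at 10 CPM.

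The regulators also differed among LB clusters. Tfeb was 23.2 CPM in cluster 1 (20.9 to 25.8), 20.2 CPM in cluster 7 and 17.2 CPM in cluster 9, and between 3.04 and 11.1 CPM in clusters 2, 3, 4, 6 and 8. Tfe3 was 36.2 CPM in cluster 1 (33.3 to 39.4), against 10.7 CPM in cluster 3, 10.02 CPM in cluster 4 and 21.6 CPM in cluster 2. In clusters 6, 7, 8 and 9 it lay between 25.3 and 30.2 CPM.

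**Figure D3:**
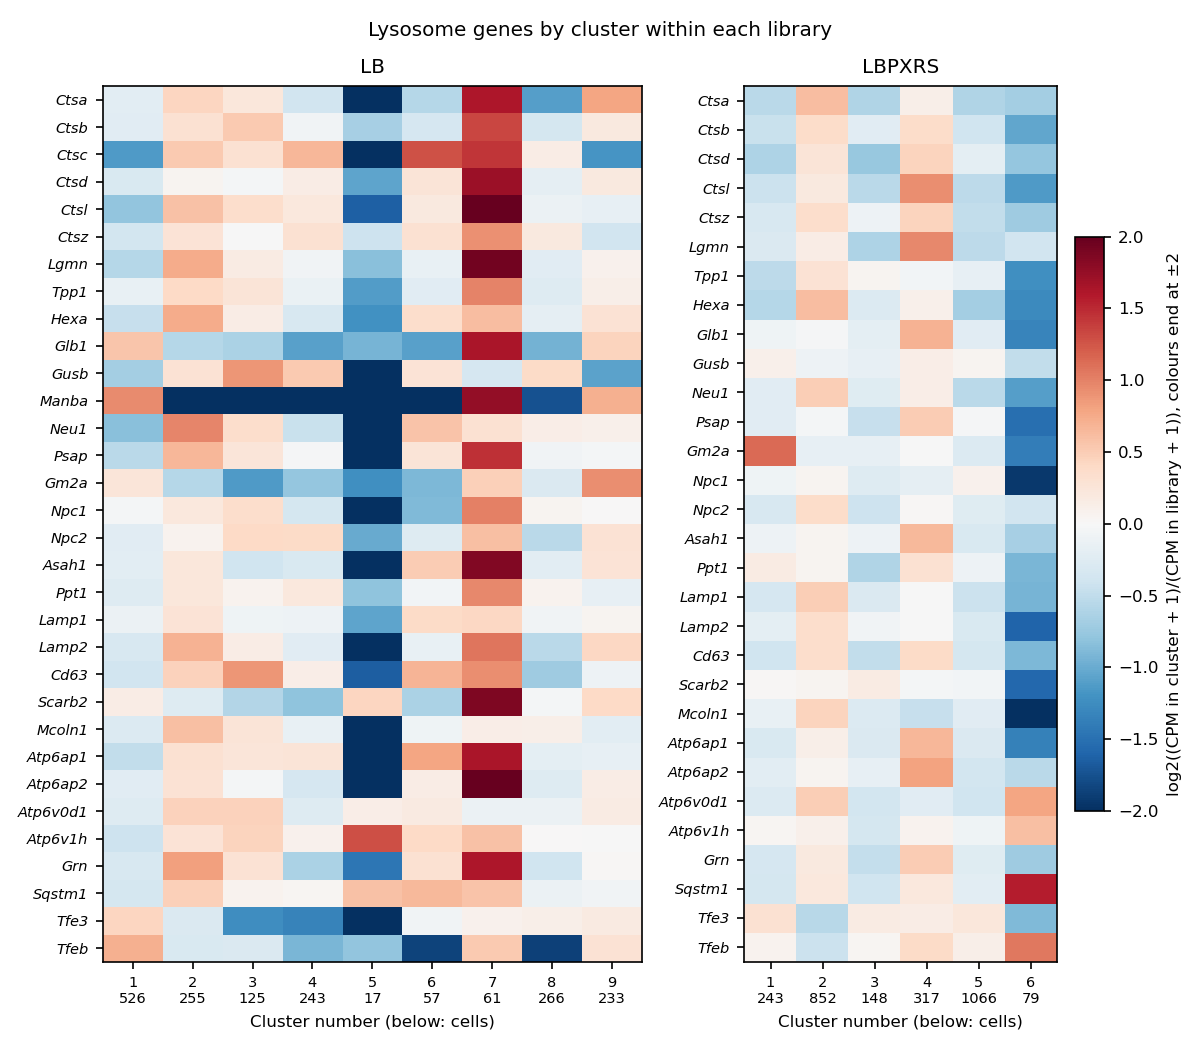
Log2 ratio of each lysosome gene's CPM in a cluster over its CPM in the whole library (1 added to each; red higher, blue lower, colours end at 2 in size), for 9 LB and 6 LBPXRS clusters with their cell numbers, over members at 10 CPM or more in that library. LB cluster 7 is red for most members, Manba is dark blue in LB clusters 2 to 6, and the dark cells of LB cluster 5 rest on 101 UMIs in all.

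In LBPXRS, 2 clusters stood above the rest. Cluster 2 (852 cells, led by Gata2, Dusp4 and Aqp3) was at 3038 CPM (3012 to 3065) and cluster 4 (317 cells, led by Hspa5, Tuba3a and Slc7a3) at 2998 CPM (2956 to 3040). Clusters 1, 3 and 5 lay at 1995, 1914 and 1940 CPM, and cluster 6, 79 shallow cells with 0.0436% mitochondrial UMIs, at 1525 CPM (1403 to 1655). The 76 cells of at least 30 lysosome gene UMIs were found in clusters 2 (33 cells), 4 (37) and 5 (6).

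The high clusters differed in which members were highest in them. Cluster 2 was highest for 9 of the 30 members at 10 CPM or more, against 6.72% of all 6726 genes of that level. Among the 9 were Hexa (259.5 CPM, 251.9 to 267.3, against 180.8 CPM in cluster 4), Lamp1 (523.4 against 369.1 CPM) and Ctsa (111.4 against 78.7 CPM). Cluster 4 was highest for 13, against 13.7% of all genes. Among the 13 were Ctsl (245.4 CPM, 233.6 to 257.7, against 147.5 CPM in cluster 2), Lgmn (82.2 against 46.6 CPM) and Atp6ap2 (121.1 against 71.9 CPM). Ctsl, Lgmn and Atp6ap2 were also, of the members at 10 CPM or more, those furthest above the library in LB cluster 7, which shares Slc7a3 and Tuba3a among its leading genes with LBPXRS cluster 4. Gm2a was highest elsewhere, in cluster 1, at 79.6 CPM (72.0 to 87.9) against 13.2 to 35.6 CPM in the other clusters. Tfe3 was 33.4 CPM in cluster 2 (30.7 to 36.3), below the 55.3 to 61.3 CPM of clusters 1, 3, 4 and 5. Ctsc was not detected in cluster 1 (0 UMIs, with an interval of 0 to 0.743 CPM) and stayed below 2 CPM in clusters 2 to 5.

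Across cells, most members correlated above 0 with the rest of the list. Each member's thinned count was set against the summed thinned count of the others by Spearman correlation, a description over cells of 1 library that share their depth and capture. In LB the median over 32 members was 0.098, and 28 were above 0. Over all 7015 genes of that level in LB the median was 0.008 and the central 95% ran from -0.099 to 0.118, and 12 members lay above it. In LBPXRS the median over 30 members was 0.137, with 27 above 0, and 17 lay above the central 95% of 6726 genes (-0.102 to 0.106, median -0.008). These are weak correlations in sparse counts, since the members other than Lamp1, Npc2 and Cd63 averaged under 1 thinned UMI a cell.

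Lamp1 (0.337) and Hexa (0.312) were highest in LBPXRS, ranked 3 and 5 among all 6726 genes, followed by Ctsl (0.276), Ctsb (0.261), Cd63 (0.257) and Ctsd (0.253). In LB Cd63 (0.209), Ctsl (0.188) and Ctsb (0.179) led. Tfe3 was the lowest member in both, at -0.025 in LB and -0.083 in LBPXRS, and Manba and Gm2a were near 0 in LB (-0.011 and -0.009). The sums of the 6 role groups correlated above 0 in all 15 pairs in each library, from 0.046 to 0.166 in LB and from 0.064 to 0.320 in LBPXRS. The highest pair in LBPXRS was proteases with membrane proteins.

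**Figure D4:**
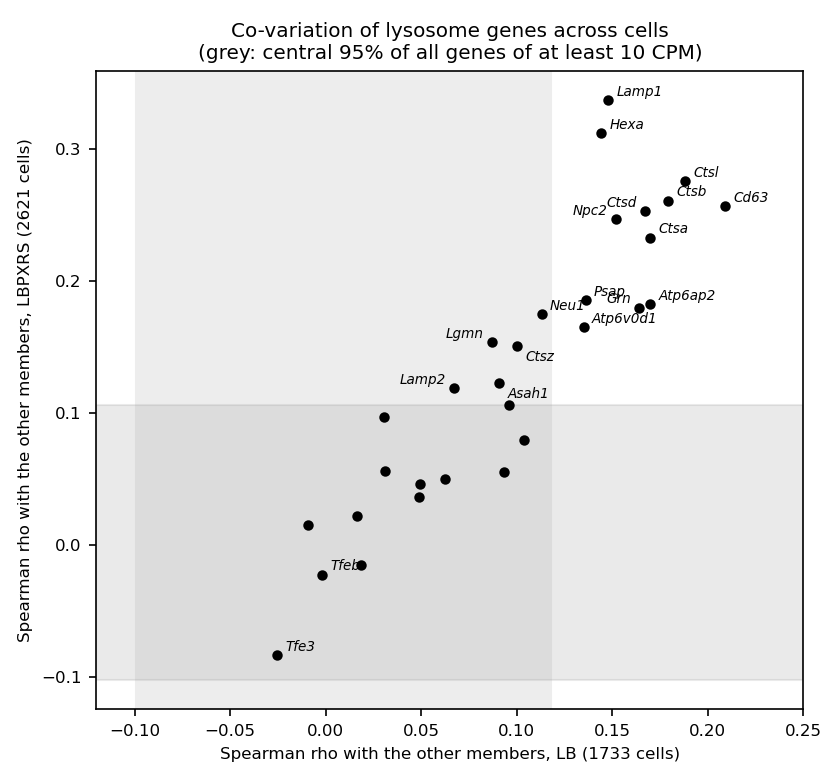
Spearman correlation of each lysosome gene with the summed other members across thinned cells, in LB (horizontal axis, 1733 cells) and LBPXRS (vertical axis, 2621 cells). Grey bands hold the central 95% of all genes at 10 CPM or more, and the cathepsin genes Ctsl, Ctsb, Ctsd and Ctsa with Lamp1, Hexa, Npc2 and Cd63 lie above both bands, while Tfe3 is lowest.

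The correlation varied among clusters. Within LBPXRS clusters of at least 100 cells the median over members was 0.261 in cluster 4, 0.109 in cluster 2, 0.063 in cluster 5, 0.037 in cluster 1 and 0.030 in cluster 3, against 0.137 in the library. Within LB it was 0.134 in cluster 2, 0.094 in cluster 4, 0.071 in cluster 3, 0.055 in cluster 9, 0.044 in cluster 1 and 0.010 in cluster 8, against 0.098. Without cells of at least 30 lysosome gene UMIs it was 0.091 in LBPXRS and 0.092 in LB. Those cells were picked by the same sum that is correlated, so leaving them out can itself lower the value. Total depth correlated with the thinned member sum at -0.182 in LB and -0.068 in LBPXRS, and mitochondrial share at 0.028 and -0.100. Their part in the co-variation was not tested.

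The outside genes whose counts tracked the member sum most closely were named by rank. In LBPXRS they were Apoe, for a lipid carrier protein (0.456), Fabp3, for a fatty acid binding protein (0.413), Aqp3, for a water and glycerol channel (0.314), Atp5b, for an ATP synthase subunit (0.285), S100a13 (0.271), Cyba (0.266), the proton pump gene Atp6v0b (0.260) and Ifi30, for a lysosomal thiol reductase (0.244). In LB they were Atp5b (0.307), Apoe (0.286), Gapdh (0.278), Ubb (0.242), Tecr (0.239), Eif4a1 (0.234), Tubb5 (0.228) and Tmbim6 (0.228). At the other end, Ptma (-0.342) and Rplp1 (-0.333) were lowest in LB and Rpl41 (-0.342) in LBPXRS, genes chosen after their values were seen. The summed UMIs of ribosomal protein genes correlated with the member sum at -0.173 in LB and 0.064 in LBPXRS. Apoe and Atp5b were on both lists, and Aqp3, S100a13 and Cyba are also leading genes of LBPXRS cluster 2.

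Spp1 and Pmel served as reference genes outside the list. Spp1, for the secreted phosphoprotein osteopontin, was 79.1 CPM (76.6 to 81.8) in the LB library and 670.5 CPM (663.5 to 677.6) in the LBPXRS library, a log2 ratio of 3.07. Pmel, for a melanosome fibril protein, was 7.78 CPM (6.99 to 8.64) and 11.2 CPM (10.3 to 12.1), a log2 ratio of 0.47. Across thinned cells the member sum correlated with Spp1 at 0.047 in LB and 0.216 in LBPXRS, and with Pmel at 0.068 and 0.116. In LB the Spp1 value turned to -0.007 when cells were thinned to 10000 UMIs. Within LBPXRS clusters the Spp1 value was 0.384 in cluster 4, 0.192 in cluster 3, 0.146 in cluster 2, 0.115 in cluster 1 and 0.048 in cluster 5. The Pmel value there was 0.244 in cluster 4 and 0.170 in cluster 2, but -0.043 in cluster 5 and -0.0495 in cluster 1. In cluster 3 it was 0.0096, on 2 Pmel UMIs after thinning.

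Lysosome gene counts were highest in the cells with most Spp1, a range with no upper end. In LBPXRS the mean lysosome gene count was 10.99 UMIs in the 445 cells with 0 Spp1 UMIs (10.7 to 11.3), 11.2 at 1 to 2 Spp1 UMIs, 12.5 at 3 to 5, 13.98 at 6 to 10, and 26.6 in the 115 cells at 11 or more (25.7 to 27.6). The medians over the same ranges were 10, 10, 11, 13 and 19, so the mean of the top range lay well above its median. In LB it was 8.42 in 1316 cells with 0 Spp1 UMIs (8.26 to 8.58), 8.08 at 1 to 2, 11.3 at 3 to 5, 15.5 in 15 cells at 6 to 10 and 24.0 in 5 cells at 11 or more (19.9 to 28.7), with medians of 8, 7, 10, 15 and 25. The intervals on these means leave out the spread between cells, so they are too narrow for a mean over cells. Median depth fell from 25608 to 9110 UMIs along that LB range and was 18484 and 17073 at the ends of the LBPXRS range. Depth's part in this relation was not tested. A cell with 0 in a draw of 5000 UMIs may still express Spp1. In LB clusters 2 and 3 the share of thinned cells with an Spp1 UMI was 0.803% and 0.820%, at median depths of 21634 and 20864 UMIs, against 44.8% in cluster 1 at 28431. In LBPXRS it was at least 78.4% in every cluster of at least 100 cells, so no background share could be read there.

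**Figure D5:**
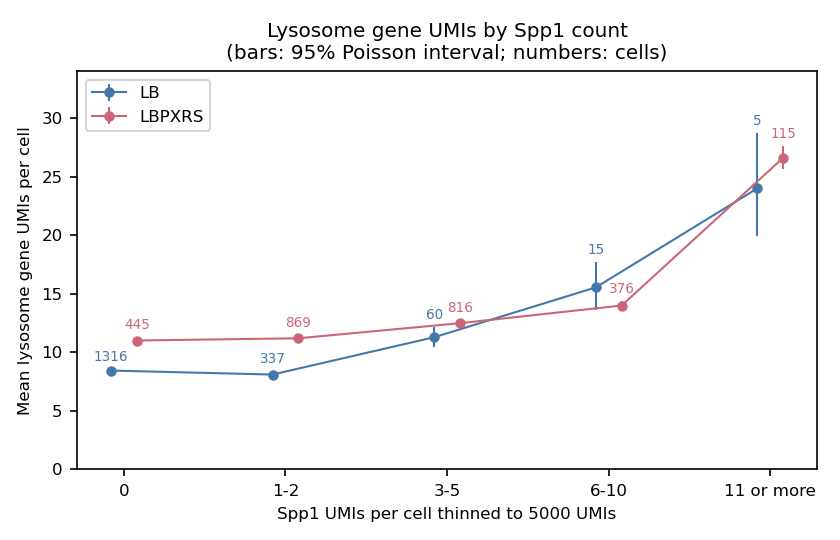
Mean lysosome gene UMIs per thinned cell (vertical axis) by the number of Spp1 UMIs in the cell (horizontal axis), in LB (blue) and LBPXRS (red), with 95% Poisson intervals and cell numbers. The LBPXRS mean lies between 10.99 and 13.98 up to 10 Spp1 UMIs and reaches 26.6 at 11 or more, and the highest LB point, 24.0, rests on 5 cells.

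Spp1 and the lysosome genes did not share every cluster. LB cluster 7 was high in both, with Spp1 at 769.5 CPM (707.7 to 835.2), as was LBPXRS cluster 4, with Spp1 at 1249 CPM (1222 to 1276). LB clusters 2, 3 and 4 held between 2.58 and 3.50 CPM of Spp1 with lysosome sums of 1625 to 2051 CPM, while LB cluster 1 held 130.7 CPM of Spp1 with 1381 CPM. Pmel had too few UMIs for such a range: cells with at least 1 Pmel UMI averaged 10.95 lysosome gene UMIs in LB (60 cells) and 20.99 in LBPXRS (138 cells), against 8.47 and 12.2 in cells with 0. The medians were 9 and 15, against 8 and 11. Among single members, Ctsl had the highest correlation with Spp1 in LBPXRS (0.176) and Glb1 in LB (0.124), and Hexa (0.126) that with Pmel in LBPXRS.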

How the data were processed

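The kits were 10x Genomics 3′ v2, per the labels' protocols. The authors deposited UMI counts per gene and barcode. The matrices come from Cell Ranger 4.0.0, per the file headers, on build mm10, per the submitters' processing notes. The annotation and cell-calling settings are not given in the sources used here. Gene coordinates come from a GENCODE annotation of the same build, in which 32235 of 32285 identifiers were found.

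Barcodes with fewer than 1000 genes or over 10% mitochondrial UMIs were left out (225 in LB, 406 in LBPXRS). Scrublet in scanpy 1.11.5 marked 12 LB cells (0.673%) and 14 LBPXRS cells (0.518%) as doublets, which were kept. Counts were summed over kept cells as CPM. The ratio is log2((CPM LBPXRS + 1)/(CPM LB + 1)), which understates changes of low genes, and genes were counted from 10 CPM in either library. TMM factors came from edgeR 4.0.16 and no count model was fitted. A count of 0 in the text is read as allowing up to 3 UMIs. Each library was clustered alone (2000 variable genes, 30 components, 15 neighbours, Leiden resolution 0.5).

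All members were named, with the 2 highest and 2 lowest genes of each pathway list and the 8 outside genes most correlated with the member sum. Some genes that this rule names are not reported here. Promoters come from RefSeq, GRCm38.p6. The steps were tested on simulated counts. The members and lists were chosen with earlier results of these data known. Comparing LB cluster 1 alone, centring on chromosomes and leaving out cells of at least 30 lysosome gene UMIs were chosen after seeing the data. With 1 library per culture the values carry no replicate error.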

Additional observations from a re-analysis of the deposited data

How the results depend on the processing

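No paired analysis was possible because each culture had 1 library and its number only names it. The number of members at least 2-fold higher ranged from 7 to 12 over all settings, and that of members at least 2-fold lower was 1 with TMM scaling and with LB cluster 1 only, and otherwise 2. Under both, Ctsc was below 10 CPM in either library. The highest counts, 11 with TMM, 11 against LB cluster 1 and 12 less the chromosome medians, came where all genes shifted too. The median log2 ratio of all genes, -0.17 in the main setting, was -0.0072, -0.016 and 0 there. No share of all genes was counted in those settings. The median log2 ratio of the members (0.57) was 0.59 with a pseudocount of 0.1, 0.73 with TMM, 0.68 against LB cluster 1, 0.51 without cells of at least 30 lysosome gene UMIs and 0.83 less the chromosome medians. The log2 ratio of the sum (0.58) was 0.74 with TMM, 0.56 without cells under 0.5% mitochondrial UMIs, 0.82 against LB cluster 1 and 0.52 without the cells of at least 30. No member past 2-fold changed direction.

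The median co-variation was 0.175 in LB and 0.246 in LBPXRS without thinning, and 0.177 in LBPXRS by Pearson correlation. It was 0.091 in LBPXRS without the cells of at least 30, which were picked by the correlated sum itself. Within clusters it was 0.044 and 0.0096 in LB clusters 1 and 8, and 0.037, 0.030, 0.261 and 0.063 in LBPXRS clusters 1, 3, 4 and 5. For Spp1 in LB the correlation was 0.112 by Pearson, -0.0074 thinned to 10000 UMIs, -0.028 without thinning, and -0.028, -0.093 and -0.102 within clusters 2, 3 and 8, which held 2, 1 and 24 Spp1 UMIs after thinning, so the first pair rest on 1 or 2 cells. For Spp1 in LBPXRS it was 0.256 by Pearson, 0.292 without thinning, 0.179 without the cells of at least 30, and 0.115, 0.146, 0.384 and 0.048 within clusters 1, 2, 4 and 5. For Pmel in LB it was 0.0091, -0.021 and 0.151 within clusters 2, 8 and 9, which held 2, 4 and 19 Pmel UMIs after thinning, and could not be computed in clusters 3 and 4, which held 0. For Pmel in LBPXRS it was 0.196 by Pearson, 0.156 thinned to 10000 UMIs, 0.210 without thinning, 0.076 without the cells of at least 30, and -0.049, 0.170, 0.0096, 0.244 and -0.043 within clusters 1 to 5. The highest LBPXRS cluster over its library was 1.43 at Leiden resolution 1 and 1.34 when clustered on all variable genes, against 1.25. The causes of these shifts were not tested. Gla and Gpnmb had too few UMIs to be counted.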
